A study of Mus musculus with 12 samples.

Results

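The genes described here encode the proteins of the mitochondrial ribosome in mouse Th2 cells, a class of CD4+ helper T cell that drives allergic responses through type 2 cytokines. They were chosen by name, as every row of the deposited RNA table whose symbol is Mrpl or Mrps followed by a number and at most 1 letter, with at least 10 normalized counts on average over the 6 RNA libraries. There were 78 such genes among 25700 rows, 49 with an Mrpl and 29 with an Mrps name, and 18074 rows passed the same minimum. No gene of that name pattern fell below it: the lowest mean was 158, the median 481 and the highest 1370 normalized counts.

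The study profiled cKO (conditional knockout) and WT T cells, titled as Th2 cells, with 3 RNA-seq and 3 ATAC-seq libraries of each genotype, 12 libraries in all. ATAC-seq maps accessible DNA with the transposase Tn5. Per the labels, RNA was extracted with a micro-scale kit and each ATAC library started from a fixed number of cells. The labels give the cell type and the genotype and no age, strain, Cre driver, antigen or deleted gene, and nothing says whether libraries of a genotype came from separate animals, so p-values measure only the spread between these libraries. NRF2, named in the title of the series, is the product of Nfe2l2 and a regulator of antioxidant genes. Nfe2l2 had 452.8, 326.4 and 391.5 normalized counts in libraries labelled cKO, against 169.9, 155.3 and 147.4 in WT (log2 change 1.29, limma adjusted p = 0.0438). Its RNA was thus higher under the knockout label, and the group is called cKO-labelled throughout. The Y-linked genes Ddx3y and Eif2s3y stood at 0 in all 3 cKO-labelled libraries and lay between 116.8 and 140.5 in WT. The X-linked RNA Xist was present in both groups, with 6284.2, 4331.3 and 7069.1 in cKO-labelled and 4046.9, 3879.3 and 3173.6 in WT libraries. Genotype label and sex make-up therefore cannot be told apart, and whether WT libraries mixed cells of both sexes was not tested. Summed T cell markers ran from 12450 to 18200 in cKO-labelled and from 13400 to 15080 in WT libraries. Th2 markers, of which 5 of 7 had a mean of at least 10, summed to 1713 to 2322 in cKO-labelled and 2025 to 2485 in WT libraries. Markers of CD8 T and NK cells summed to 80.31 to 100.8 in cKO-labelled and 104.4 to 121.7 in WT libraries, with 1 of 5 above a mean of 10 and Klrb1c not listed. Those of B cells, 4 of 4 above that mean, summed to 161.3 to 209.4 in cKO-labelled and 129.7 to 307.5 in WT libraries. Those of myeloid cells, 3 of 6 above it, summed to 76.53 to 129.4 in cKO-labelled and 81.22 to 186.2 in WT libraries. Epithelial and stromal markers, 3 of 5 above it, summed to 186.6 to 307.1 in cKO-labelled and 232.1 to 340.1 in WT libraries. Only 1 of 4 erythroid markers was listed, with at most 14.32 in any library, and 0 of 3 neutrophil markers, so these say little about such cells. The myeloid marker Lyz2 and the epithelial marker Krt18 were not listed either. The part of these other cell types in any result was not tested, and in such bulk samples fewer cells of a type and less RNA per cell cannot be told apart.

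As background, mitochondria keep a ribosome of their own, which translates the few messenger RNAs encoded by mitochondrial DNA into membrane subunits of the respiratory chain and of ATP synthase. Its ribosomal RNAs come from mitochondrial DNA, while all of its proteins are encoded in the nucleus, made in the cytosol and imported. Many of them descend from the proteins of the bacterial ribosome, and others exist only in mitochondria. Activated T cells enlarge their mitochondria, and mitochondrial translation is known to be needed for their effector functions. Promoters of these genes often lack a TATA box and carry motifs of the ETS family and of nuclear respiratory factor 1. The ETS protein GABP is also called nuclear respiratory factor 2, which is a different protein from the NRF2 of the series title.

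Promoter sequences were available from RefSeq for 69 of the 78 genes, with 75 start sites. Sequences of 7 are printed: those of the 3 genes with the lowest RNA change, of the small subunit gene with the lowest, of the 2 genes with the highest and of Mrpl45, whose RNA change was near 0. Each runs 5′ to 3′ on the gene's strand from 250 bases before to 50 after the start in build GRCm38.p6, and capitals mark the letters CCGGAA (ETS family) or GCGCATGC (nuclear respiratory factor 1) on either strand. The lowest changes were those of Mrpl33 (chr5:31613701-31614000, + strand), Mrpl47 (chr3:32736706-32737005, - strand) and Mrpl52 (chr14:54426659-54426958, + strand), and in the small subunit that of Mrps14 (chr1:160194965-160195264, + strand). Mrpl45 (chr11:97315466-97315765, + strand) was near 0, and the highest changes were those of Mrpl32 (chr13:14612988-14613287, - strand) and Mrps2 (chr2:28467816-28468115, + strand).
Mrpl33: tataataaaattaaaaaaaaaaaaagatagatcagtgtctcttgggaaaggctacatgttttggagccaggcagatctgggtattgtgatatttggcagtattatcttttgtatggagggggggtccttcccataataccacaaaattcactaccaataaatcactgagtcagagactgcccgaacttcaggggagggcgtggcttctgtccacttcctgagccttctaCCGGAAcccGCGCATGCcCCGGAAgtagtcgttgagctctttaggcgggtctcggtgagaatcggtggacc
Mrpl47: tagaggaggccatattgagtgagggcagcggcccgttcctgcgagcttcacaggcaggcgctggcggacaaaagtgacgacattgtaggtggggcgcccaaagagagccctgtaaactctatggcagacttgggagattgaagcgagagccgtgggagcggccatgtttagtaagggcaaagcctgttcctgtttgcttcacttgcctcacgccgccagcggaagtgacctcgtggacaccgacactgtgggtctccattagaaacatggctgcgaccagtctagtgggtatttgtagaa
Mrpl52: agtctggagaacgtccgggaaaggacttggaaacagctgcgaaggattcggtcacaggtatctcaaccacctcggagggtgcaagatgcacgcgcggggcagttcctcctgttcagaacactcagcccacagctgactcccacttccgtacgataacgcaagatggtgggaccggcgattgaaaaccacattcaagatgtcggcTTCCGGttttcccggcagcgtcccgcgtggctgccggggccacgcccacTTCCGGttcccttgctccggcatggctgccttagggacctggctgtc
Mrps14: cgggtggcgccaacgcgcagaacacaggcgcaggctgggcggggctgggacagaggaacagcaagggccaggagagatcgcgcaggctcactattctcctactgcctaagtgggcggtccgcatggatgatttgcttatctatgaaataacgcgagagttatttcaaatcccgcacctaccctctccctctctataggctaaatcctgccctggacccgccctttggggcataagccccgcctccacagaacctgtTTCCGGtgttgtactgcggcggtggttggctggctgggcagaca
Mrpl45: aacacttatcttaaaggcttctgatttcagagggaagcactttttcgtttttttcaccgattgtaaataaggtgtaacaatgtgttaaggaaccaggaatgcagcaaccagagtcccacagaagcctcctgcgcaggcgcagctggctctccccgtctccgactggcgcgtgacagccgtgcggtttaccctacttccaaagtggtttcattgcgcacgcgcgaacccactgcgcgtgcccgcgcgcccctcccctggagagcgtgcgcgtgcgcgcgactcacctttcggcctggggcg
Mrpl32: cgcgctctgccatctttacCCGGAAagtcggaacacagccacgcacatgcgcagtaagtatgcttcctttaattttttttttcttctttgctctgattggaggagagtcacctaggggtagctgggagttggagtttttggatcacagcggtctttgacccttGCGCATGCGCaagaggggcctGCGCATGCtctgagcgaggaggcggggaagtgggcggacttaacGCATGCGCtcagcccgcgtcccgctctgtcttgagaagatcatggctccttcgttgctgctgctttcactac
Mrps2: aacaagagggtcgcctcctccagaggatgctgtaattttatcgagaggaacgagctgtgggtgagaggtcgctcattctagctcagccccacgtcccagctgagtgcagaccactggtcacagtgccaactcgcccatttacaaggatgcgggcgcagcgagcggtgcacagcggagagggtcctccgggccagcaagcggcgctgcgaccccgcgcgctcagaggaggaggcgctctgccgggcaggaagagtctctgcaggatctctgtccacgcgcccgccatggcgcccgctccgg

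In the Mrpl33 promoter the nuclear respiratory factor 1 letters began 12 bases before the start, between ETS letters that began 21 and 3 bases before it. Mrps14 had its only match 6 bases after the start. The windows of Mrpl47, Mrpl45 and Mrps2 held neither exact string of letters, nor did those of Mrps25 and Mrpl12, which are not printed. Genes with low changes were thus found with and without an exact match. Variant forms of the motifs were not searched, so a window without a match can still hold such a form. Mrpl32, with a log2 change of 0.13, held 4 matches of the nuclear respiratory factor 1 letters, of which the first 2 overlap each other.

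Over all member promoters, CCGGAA was found on either strand in 43 of 75 (57.3%), against 24.4% of the 14892 promoters of genes tested in the RNA table and 14.9% of all 32851 promoters. Of its 61 matches in member promoters 49 (80.3%) lay from 60 bases before to 50 after the start, against 56.2% of the matches in promoters of tested genes. Matches were counted in each window and on both strands, so the same bases can count more than once, as at Mrpl2, Mrps16 and Mrpl48. GCGCATGC was in 8 promoters (10.7%), against 4.59% of tested and 2.71% of all promoters, and AAGATGGCG, the letters of YY1, also in 8 (10.7%), against 2.59% and 1.4%. TGACNNNGC, the core of the antioxidant response element that NRF2 binds, was in 14 (18.7%), against 13.8% and 12.4%. TATAAA was in 5 (6.67%), against 8.53% and 13.6%. Matches of different motifs overlapped in 0 member promoters. The median GC content was 58.7% in member promoters, 59.7% in those of tested genes and 52.7% in all promoters.

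The RNA changes of genes with and without each exact string of letters are given as medians. The median log2 change was -0.32 for the 40 genes with CCGGAA and -0.27 for the 29 without it, and -0.32 for the 14 genes with TGACNNNGC and -0.31 for the 55 without. It was -0.15 for the 8 genes with GCGCATGC and -0.34 for the 61 without, and -0.30 against -0.31 for the 8 with the YY1 letters and the 61 without. With TATAAA it was -0.29 for 5 genes and without it -0.32 for 64. These are descriptions of letters in a window and were not tested.

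The question asked of the RNA was how the 78 genes differed between the genotypes. Most of them were lower in cKO-labelled cells by a small amount. The log2 change, cKO-labelled over WT on the scale of log2(normalized count + 1), was negative for 73 of 78 genes (93.6%), against 45% of all 18074 genes tested. Its median was -0.31, against 0.06 for all genes. The mean in cKO-labelled libraries ranged from 48.5% to 111% of the WT mean over the 78 genes, with a median of 80.0%. The drop was at least 1.5-fold for 17 genes, and 10 genes lay within 0.1 of 0 on the log2 scale.

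No gene of the 78 passed the threshold of 0.05 in limma after adjustment over all genes tested, with 0 lower and 0 higher, and the smallest adjusted p was 0.0546. The same threshold called 0.172% of all genes lower and 0.0332% higher. At an unadjusted p under 0.05, 28 of 78 (35.9%) were lower and 0 higher, against 6.05% of all genes in each direction. All 3 cKO-labelled values lay below all 3 WT values for 36 of 78 genes (46.2%), against 9.76% of all genes. They lay above them for 0 of 78, against 7.4%. In the authors' deposited table, 16 of 78 (20.5%) were lower and 0 higher at an adjusted p under 0.05, against 3.9% lower and 1.78% higher among the 9263 genes with an adjusted p there. For these 16 genes the groups did not overlap, and their limma adjusted p ran from 0.0546 to 0.193. The 78 genes share libraries and vary together, so their counts are not independent.

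**Figure D1:**
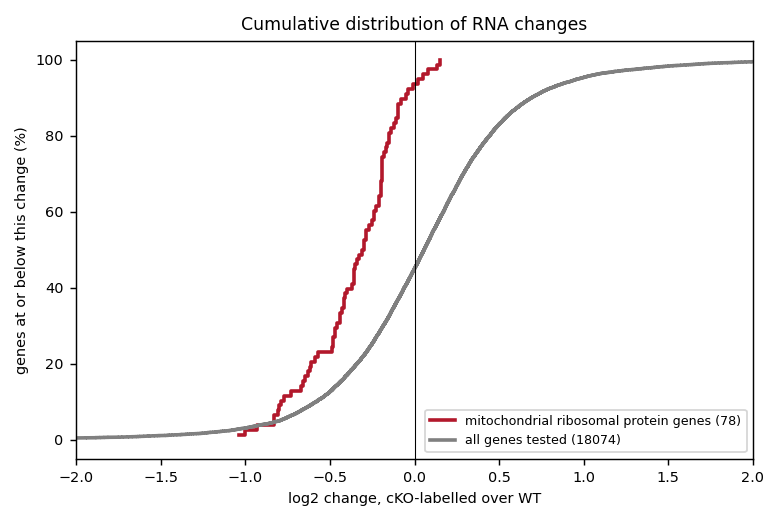
Share of genes (%, vertical axis) at or below each log2 change, cKO-labelled over WT (horizontal axis), for the 78 mitochondrial ribosomal protein genes (red) and all 18074 genes tested (grey). The red curve stands at 93.6% at 0, where the grey curve stands at 45%, and it ends at 0.15.

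The genes deviated together within each library. Their summed normalized counts were 34624, 35059 and 35469 in the cKO-labelled libraries, against 43915, 45703 and 46664 in WT. That was 0.492%, 0.545% and 0.481% of the library total in cKO-labelled libraries and 0.598%, 0.661% and 0.661% in WT. Every cKO-labelled sum lay below every WT sum. Of the 78 genes, 66, 64 and 59 were below their own mean over the 6 libraries in the cKO-labelled libraries, and 18, 15 and 15 in the WT libraries. Library totals ran from 6431081 to 7372007 normalized counts. Both subunits showed the same order: the sums for large subunit genes were 23496, 23627 and 24030 in cKO-labelled and 30080, 30531 and 32397 in WT libraries, and those for small subunit genes 11128, 11432 and 11440 in cKO-labelled and 13835, 15172 and 14267 in WT libraries.

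**Figure D2:**
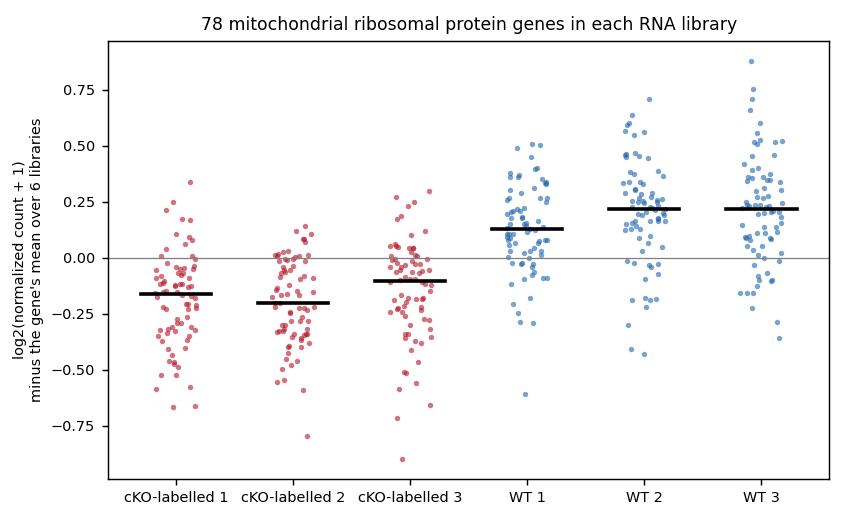
Each point is 1 of the 78 genes in 1 RNA library, as log2(normalized count + 1) minus that gene's mean over the 6 libraries (vertical axis, log2), and black lines are medians. The medians were -0.161, -0.203 and -0.103 in the cKO-labelled libraries and 0.126, 0.218 and 0.216 in the WT libraries.

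By structure, the genes were grouped into the large subunit, which holds the peptidyl transferase centre, and the small subunit, which reads the messenger RNA. Mrps30 and Mrps18a are named for the small subunit and sit in the large, which gave 51 large and 27 small subunit genes. In the large subunit 47 of 51 changes were negative (median -0.30), 12 of 51 genes fell in the authors' deposited table and 0 in limma. In the small subunit 26 of 27 were negative (median -0.31), and 4 of 27 fell in the authors' deposited table and 0 in limma. Of all genes tested, 45% were negative and 0.172% lower in limma, and 3.9% of those in the authors' deposited table were lower there. The median was -0.32 for the 30 large subunit proteins with a bacterial counterpart, -0.30 for the 21 specific to mitochondria, -0.32 for the 16 small subunit proteins with a bacterial counterpart and -0.21 for the 11 specific to mitochondria. No difference between these groups was tested.

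**Figure D3:**
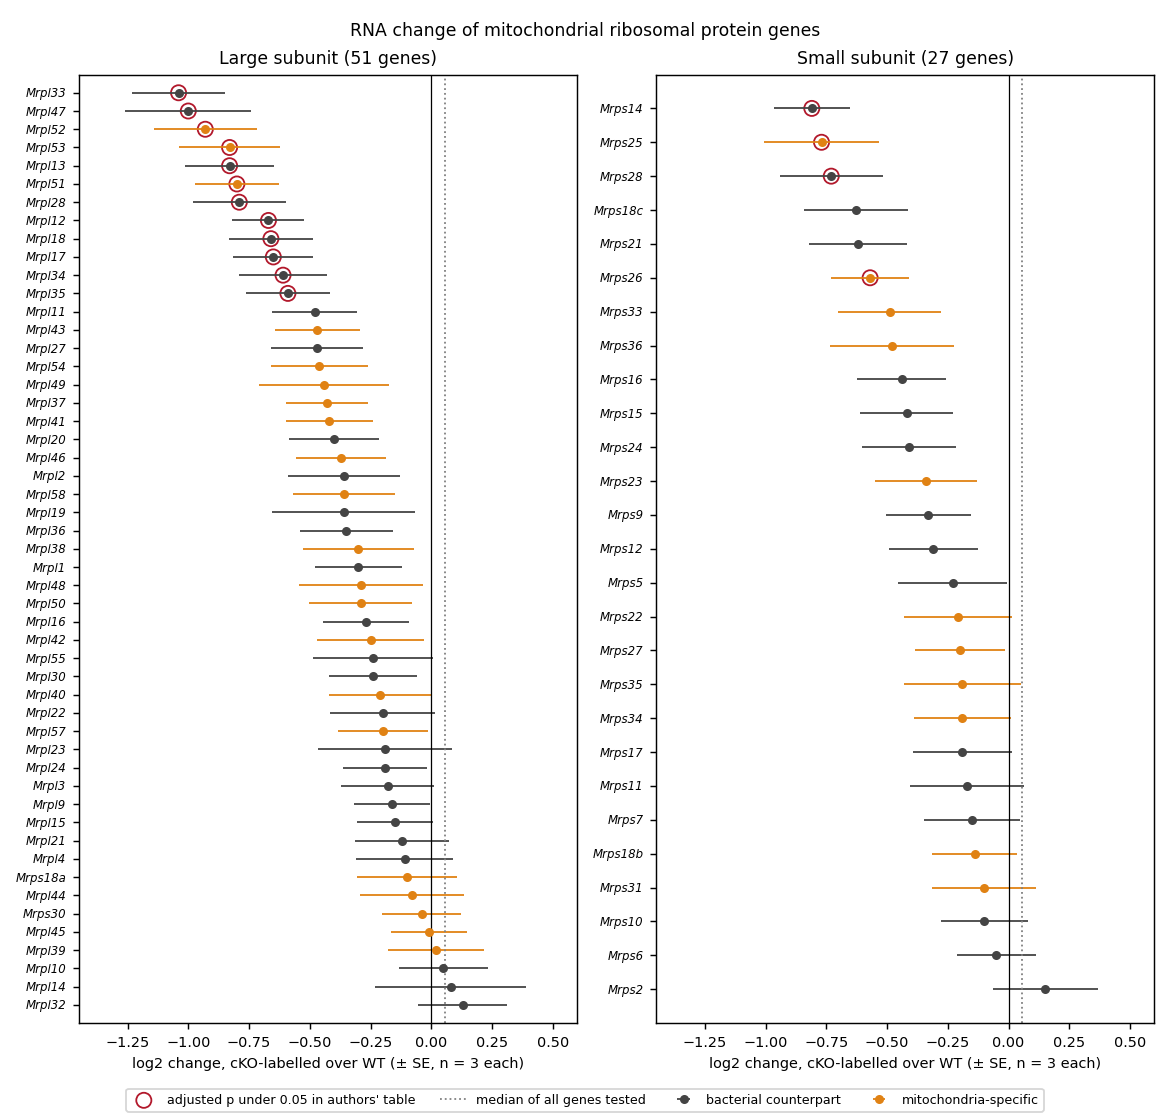
Log2 change, cKO-labelled over WT, with its standard error (n = 3 each) for the 51 large subunit and 27 small subunit genes, black for proteins with a bacterial counterpart and orange for those specific to mitochondria. Rings mark the 16 genes with an adjusted p under 0.05 in the authors' deposited table, the dotted line is the median of all genes tested (0.06), and 5 genes lie right of 0.

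Among large subunit proteins with a bacterial counterpart, Mrpl33 had the lowest change. Mrpl33 (ENSMUSG00000106918, chromosome 5, 31613951 to 31622644) encodes the mitochondrial form of bacterial ribosomal protein bL33, and its span overlaps the predicted gene Gm38424. It had 423.37, 487.94 and 369.41 normalized counts in cKO-labelled libraries, against 723.56, 994.46 and 922.50 in WT. The groups did not overlap, and the mean was 426.9 ± 59.3 in cKO-labelled and 880.2 ± 140.0 in WT libraries (SD, n = 3 each), 2.05-fold lower (log2 change -1.04, SE 0.192, limma adjusted p = 0.0546, authors' adjusted p = 0.000109 in their deposited table).

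Mrpl47 encodes the relative of bacterial uL29, at the mouth of the tunnel through which the new chain leaves. It had 161.17, 240.20 and 129.57 normalized counts in cKO-labelled libraries and 331.77, 306.53 and 396.78 in WT, with no overlap (log2 change -1.0, SE 0.259, limma adjusted p = 0.129). The other genes listed for the exit tunnel and the membrane side lay closer to 0: the median over the 5 was -0.19, and Mrpl45 had the highest change of them at -0.01. Mrpl45, whose protein ties the ribosome to the inner membrane at the tunnel exit, had 1328.78, 1446.76 and 1312.59 normalized counts in cKO-labelled and 1204.36, 1349.59 and 1580.03 in WT libraries. These groups overlapped, and the sign of the Mrpl45 change turned to 0.01 after quantile normalization and after cyclic loess.

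Of the stalk, the arm that recruits translation factors, Mrpl12 was lower and Mrpl10 near 0. Mrpl12 encodes the mobile stalk protein, also known to bind the mitochondrial RNA polymerase. It had 853.30, 837.15 and 839.47 normalized counts in cKO-labelled libraries and 1343.24, 1282.66 and 1404.82 in WT. The 3 cKO-labelled values lay close together at 843.3 ± 8.73, against 1344 ± 61.1 in WT (SD, n = 3 each), 1.59-fold lower (log2 change -0.67, SE 0.148, limma adjusted p = 0.0876). Mrpl10, which encodes the base that carries Mrpl12, had 516.08, 513.71 and 603.06 in cKO-labelled and 544.75, 583.37 and 457.25 in WT libraries, which overlap (log2 change 0.05). Mrpl11, the other protein of the stalk base, had a log2 change of -0.48 and no overlap between groups (431.70, 455.05 and 391.48 in cKO-labelled and 558.67, 620.31 and 606.19 normalized counts in WT libraries).

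In the central protuberance, where the large subunit meets the small one above the tRNAs, all 7 listed genes had a negative change (median -0.30). Mrpl18, the relative of the bacterial protein that binds 5S ribosomal RNA, had 493.21, 473.78 and 554.95 normalized counts in cKO-labelled and 894.98, 712.50 and 805.63 in WT libraries. These groups did not overlap (log2 change -0.66, limma adjusted p = 0.136). Mrpl18 overlaps Tcp1 in the genome, and reads of overlapping genes, those of Mrpl33 included, cannot be told apart here, since the sources do not say whether counting used strand.

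The other large subunit genes with a bacterial counterpart that fell in the authors' deposited table were Mrpl13, Mrpl28, Mrpl17, Mrpl34 and Mrpl35. Mrpl13 had 367.35, 471.68 and 481.33 normalized counts in cKO-labelled libraries and 741.88, 750.44 and 836.72 in WT (log2 change -0.83). Mrpl28 had 300.66, 381.57 and 346.76 in cKO-labelled libraries and 517.48, 620.43 and 643.69 in WT (log2 change -0.79). The log2 changes of Mrpl17, Mrpl34 and Mrpl35 were -0.65, -0.61 and -0.59. The groups did not overlap for any of these 5 genes.

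Among large subunit proteins specific to mitochondria, Mrpl52, Mrpl53 and Mrpl51 fell in the authors' deposited table. Mrpl52 had 442.41, 671.37 and 445.49 normalized counts in cKO-labelled libraries and 805.48, 956.24 and 1183.99 in WT, 1.90-fold lower (log2 change -0.93, SE 0.213, limma adjusted p = 0.0984). Mrpl51 (ENSMUSG00000030335, chromosome 6, 125192200 to 125194392) had 776.86, 1046.13 and 742.61 in cKO-labelled libraries and 1386.28, 1412.39 and 1644.16 in WT (log2 change -0.80, SE 0.174, limma adjusted p = 0.0836). For both genes the cKO-labelled library numbered 2 was the highest of its group and still lay below every WT library. Mrpl53, whose span overlaps Ccdc142, had a log2 change of -0.83. At the other end, Mrps30, a large subunit protein in spite of its name, had 594.08, 622.40 and 610.72 in cKO-labelled and 617.58, 603.71 and 656.56 in WT libraries (log2 change -0.04). Mrpl44 and Mrpl39 had log2 changes of -0.08 and 0.02, with overlapping groups.

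In the small subunit, Mrps14 had the lowest change. Mrps14 (ENSMUSG00000058267, chromosome 1, 160195215 to 160201186) encodes the mitochondrial form of bacterial uS14. It had 703.92, 675.24 and 615.44 normalized counts in cKO-labelled libraries, against 1246.01, 1139.70 and 1118.00 in WT. The lowest WT library lay well above the highest cKO-labelled one, and the means of 664.9 ± 45.1 in cKO-labelled and 1168 ± 68.5 in WT libraries (SD, n = 3 each) differed 1.76-fold (log2 change -0.81, SE 0.157, limma adjusted p = 0.0634).

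Mrps28, the mitochondrial relative of bacterial bS1, had 176.12, 183.78 and 206.65 normalized counts in cKO-labelled libraries and 311.94, 333.07 and 294.37 in WT (log2 change -0.73). Mrps26 and Mrps25, both specific to mitochondria, also fell in the authors' deposited table. Mrps26 had 572.26, 560.75 and 570.44 in cKO-labelled and 804.25, 872.02 and 852.43 in WT libraries (log2 change -0.57), and Mrps25 241.06, 296.94 and 234.95 in cKO-labelled and 320.67, 496.15 and 530.80 in WT libraries (log2 change -0.77). None of the 3 genes had overlapping groups. In the genome the span of Mrps25 overlaps Nr2c2 and that of Mrps28 the predicted genes Gm15466, Gm52600 and Gm52601. The limma adjusted p was 0.177 for Mrps28, 0.164 for Mrps26 and 0.193 for Mrps25.

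The gene with the highest change of the 78 was Mrps2, the relative of bacterial uS2, with 416.97, 293.40 and 341.96 normalized counts in cKO-labelled and 354.48, 267.59 and 321.73 in WT libraries (log2 change 0.15, SE 0.216). Mrpl32, whose protein is known to be cut to its mature form by a mitochondrial protease, had 507.91, 453.99 and 452.77 in cKO-labelled and 441.52, 385.94 and 466.92 in WT libraries (log2 change 0.13). The groups of both genes overlapped. Mrpl14 had a log2 change of 0.08, and its sign turned to -0.03 after quantile normalization. The limma adjusted p of the 5 genes with a positive change ran from 0.824 to 0.979.

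Outside the 16 genes that fell in the authors' deposited table, the groups did not overlap for 20 more genes, whose log2 changes ran from -0.63 to -0.15. Mrps18c, the relative of bacterial bS18, had 221.63, 253.18 and 250.21 normalized counts in cKO-labelled and 316.80, 452.80 and 360.93 in WT libraries (log2 change -0.63, limma adjusted p = 0.256). Mrps21, the relative of bacterial bS21, had 643.84, 783.69 and 547.69 in cKO-labelled and 784.54, 1103.22 and 1153.45 in WT libraries (log2 change -0.62, limma adjusted p = 0.233). In Mrps21, as in Mrps36, the highest cKO-labelled and the lowest WT library nearly met. The others were Mrpl1, Mrpl9, Mrpl11, Mrpl15, Mrpl20, Mrpl27, Mrpl37, Mrpl41, Mrpl43, Mrpl46, Mrpl54, Mrps9, Mrps12, Mrps15, Mrps16, Mrps24, Mrps27 and Mrps36. The groups overlapped for the other 42 genes, with log2 changes from -0.49 for Mrps33 to 0.15 for Mrps2. Among these, Mrpl58, a large subunit protein that is also known as a peptidyl-tRNA hydrolase rescuing stalled ribosomes, had a log2 change of -0.36.

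**Figure D4:**
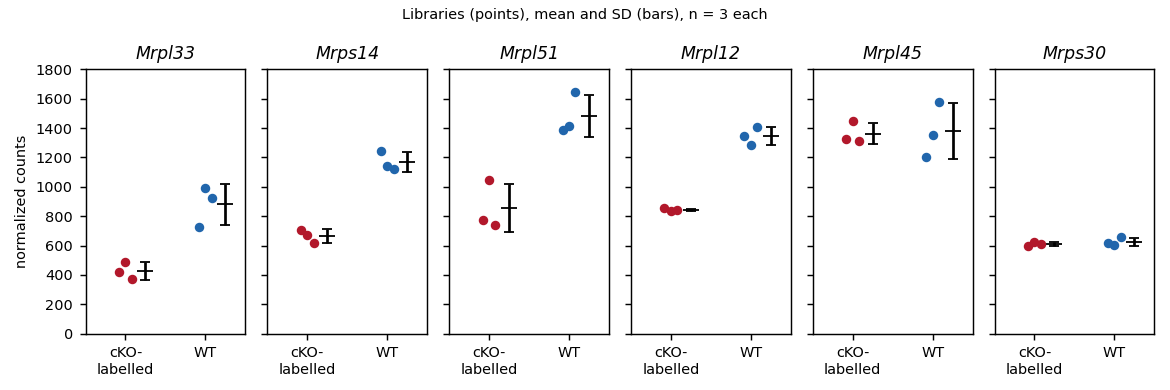
Normalized counts (vertical axis, from 0) of 6 genes in each library, 3 cKO-labelled (red) left of 3 WT (blue), with mean and SD beside the points. Mrpl33, Mrps14, Mrpl51 and Mrpl12 show no overlap between groups, with cKO-labelled means of 426.9, 664.9, 855.2 and 843.3 against WT means of 880.2, 1168, 1481 and 1344, while Mrpl45 and Mrps30 overlap.

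The genes with the lowest means had wide errors. Mrpl14, Mrpl55, Mrpl23 and Mrps36 averaged 157.6, 161.4, 183.2 and 185.7 normalized counts over the 6 libraries, with standard errors of the log2 change of 0.310, 0.247, 0.277 and 0.257, against a median of 0.193 over the 78 genes. Mrpl23 had 176.16, 121.77 and 220.64 in cKO-labelled and 155.28, 204.69 and 220.59 in WT libraries, which overlap (log2 change -0.19). It is reported as uncertain, because the pseudogene Mrpl23-ps1 is a separate row with 110.36, 208.09 and 148.82 in cKO-labelled and 233.54, 270.72 and 283.00 in WT libraries. Mrps36 carries the name of a small subunit protein but is known as a component of the alpha-ketoglutarate dehydrogenase complex. It was kept by its name only and is counted above with the small subunit genes specific to mitochondria. It had 166.47, 127.80 and 168.62 normalized counts in cKO-labelled and 217.60, 264.75 and 168.90 in WT libraries (log2 change -0.48), so that the highest cKO-labelled and the lowest WT library nearly met.

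Gene length moved with the RNA change over the whole table, so it is given beside the result. The median gene span was 7.69 kb for the 78 genes and 20.1 kb for all genes tested. Across genes, the rank correlation of log2 change with span was 0.24 over the 78 and 0.12 over 15786 genes with a span. All genes were divided by span into 5 groups of equal size. In the shortest group, up to 5.04 kb, the median change was -0.42 for the 25 genes of the family and -0.03 for all genes. In the next group, up to 14.1 kb, it was -0.30 for 36 genes and -0.02 for all genes, and in the middle group -0.19 for 11 genes and 0.04 for all genes. The 2 groups of longer genes held 4 and 2 genes of the family, with medians of -0.29 and -0.47 against 0.10 and 0.15 for all genes. In each group the family median was below that of all genes. The median was -0.33 for the 25 genes whose span overlaps another gene and -0.30 for the 53 others. Another gene overlaps 5 of the 16 that fell in the authors' deposited table.

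Other genes of mitochondrial translation were read from lists chosen for their function. Proteins of the same ribosome that carry no Mrp number all had a negative change (5 of 5 tested, median -0.21), with 0 past the threshold in limma, 0 at an unadjusted p under 0.05 and 0 in the authors' deposited table. Dap3, a GTP-binding small subunit protein, had 548.25, 567.18 and 580.14 normalized counts in cKO-labelled and 675.68, 678.21 and 759.81 in WT libraries (log2 change -0.32). Chchd1 and Ptcd3, both of the small subunit, had log2 changes of -0.47 and -0.19. All 3 cKO-labelled values lay below all 3 WT values for 4 of these 5 genes, against 9.76% of all genes tested.

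The 24 genes of ribosome assembly and ribosomal RNA modification did not share this direction: 12 changes were negative and 12 positive, with a median of -0.01. In limma 0 of 24 passed, with 3 lower and 0 higher at an unadjusted p under 0.05, against 6.05% of all genes in each direction. Of the 21 with an adjusted p in the authors' deposited table, 2 fell, against 3.9% of all genes there. Fastkd2, which binds the 16S ribosomal RNA, had 216.11, 175.70 and 261.76 normalized counts in cKO-labelled and 557.87, 491.40 and 415.64 in WT libraries (log2 change -1.17, limma adjusted p = 0.0597). Dhx30, an RNA helicase needed for assembly, had 741.48, 703.98 and 556.74 in cKO-labelled and 1164.71, 986.69 and 897.35 in WT libraries (log2 change -0.61). Malsu1, which binds the large subunit during assembly, had a log2 change of -0.61 with overlapping groups.

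Of 15 translation factors and messenger RNA binding proteins of mitochondria, 9 had a negative change (median -0.09), 0 passed in limma, 2 were lower and 0 higher at an unadjusted p under 0.05 (6.05% of all genes in each direction), and 0 passed in the authors' deposited table. The lowest p were those of Tsfm, the elongation factor Ts (log2 change -0.76), Slirp, which holds messenger RNAs stable (-0.60), and Taco1, an activator of Co1 translation (0.67). All 6 genes of mitochondrial transcription had a negative change (median -0.21), with 0 past the threshold in limma, 1 lower at an unadjusted p under 0.05 (6.05% of all genes) and 0 in the authors' deposited table. Polrmt, the mitochondrial RNA polymerase, had 234.10, 363.69 and 267.90 normalized counts in cKO-labelled and 511.17, 381.04 and 480.75 in WT libraries (log2 change -0.68). Tfam and Tfb2m, its partners at the promoter, had log2 changes of -0.49 and -0.19.

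Of 9 transcription factors and coactivators linked to the motifs above, Nfe2l2 was the only gene past the threshold in limma, and it was higher in cKO-labelled libraries, as were 0.0332% of all genes tested. Yy1 and Ppargc1a, which had the next smallest p, had log2 changes of 0.27 and 0.63 with limma adjusted p of 0.590 and 0.503. Gabpa, which encodes the DNA-binding part of GABP, had a log2 change of 0.18 and Nrf1, nuclear respiratory factor 1, of -0.16. They were named to match the motifs, after their values were seen.

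Of the ribosomal RNAs that these proteins bind, both encoded by mitochondrial DNA, the 12S was higher in cKO-labelled libraries and the 16S near 0. Both were also named after their values were seen. The 12S ribosomal RNA of the small subunit, mt-Rnr1, had 11601.08, 10654.86 and 12378.94 normalized counts in cKO-labelled and 7393.05, 7848.72 and 8267.83 in WT libraries. Every cKO-labelled value lay above every WT value (log2 change 0.56, SE 0.119, limma adjusted p = 0.0809, authors' adjusted p = 0.00568 in their deposited table). The 16S ribosomal RNA of the large subunit, mt-Rnr2, had 23755.03, 25800.81 and 26460.76 in cKO-labelled and 23215.56, 24077.44 and 27361.66 in WT libraries, which overlap (log2 change 0.03). Of the 13 mitochondrially encoded messenger RNAs 11 had a positive change (median 0.66), 0 passed in limma, 6 were higher and 0 lower at an unadjusted p under 0.05, against 6.05% of all genes in each direction. Of the 13, 4 rose in the authors' deposited table, against 1.78% of all genes there. Their share of the library total was 3.45%, 2.34% and 3.95% in cKO-labelled and 2.06%, 2.89% and 1.64% in WT libraries, which overlap. How much ribosomal RNA a library holds depends on how it was removed or selected, which the sources used here do not give.

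Nearby families had medians of like size. Beside the counts that follow, 45% of all genes tested had a negative change, 0.172% were lower in limma and 3.9% lower in the authors' deposited table. The 84 cytosolic ribosomal protein genes had 75 negative changes and a median of -0.33, with 1 lower in limma and 21 of 81 in the authors' deposited table. The 36 complex I genes with Nduf names had 34 negative changes and a median of -0.42, with 1 lower in limma and 9 in the authors' deposited table. The difference between these medians and the -0.31 of the mitochondrial ribosomal proteins was not tested.

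The ATAC comparison asked whether open chromatin at the starts of these genes differed with the RNA. At the gene starts it was slightly higher in cKO-labelled cells, as it was at gene starts in general. Merging the peaks of the 6 lists gave 114463 regions, and 33531 of them had a peak in all lists. Of the 78 genes 77 had such a region within 1 kb of a start, and only Mrpl4 did not, with a peak in 3 lists. For 9 genes without a RefSeq promoter entry both ends of the gene were used. There were 79 regions, since some genes have several and the start sites of Mrpl46 and Mrps11 share 1. The depth per ATAC library was 13149952 to 18327127 tags. The share of tags in peaks was 34.87%, 35.4% and 35.42% in cKO-labelled and 38.28%, 25.22% and 35.63% in WT libraries, lowest in the WT library numbered 2.

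After quantile normalization, 1 of the 79 regions was lower and 2 were higher in cKO-labelled libraries (limma adjusted p under 0.05), against 4.33% of all regions lower and 3.67% higher. Their median log2 change was 0.13, against 0.12 at 10585 regions within 1 kb of any gene start and 0.02 over all regions. It was negative at 18 of 79 (22.8%), against 31% of start regions. The counts differed with the scaling: with only each library's median subtracted, 0 were lower and 47 higher, with a median of 0.51 against 0.52 at all start regions. Of all regions, 5.48% were then lower and 28% higher. With the deposited scaling alone, 0 were lower and 2 higher, against 9.03% and 1.37% of all regions.

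The region called lower was at Mrps22, a small subunit protein specific to mitochondria (chr9:98599902-98602304, build mm10). The deposited tag counts of its highest peak, per 10000000 tags, were 45.2, 58.4 and 33.1 in cKO-labelled and 91.3, 55.9 and 77.3 in WT libraries. These overlap (log2 change -0.62, SE 0.171, adjusted p = 0.0489), and per kb of peak the change was -0.01. The call was lost when any library was left out. The RNA of Mrps22 had a log2 change of -0.21.

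The regions called higher were at Mrpl9 and Mrpl45. The start of Mrpl9, a large subunit protein with a bacterial counterpart, had 138, 133.1 and 135.4 tags in cKO-labelled and 113.6, 64.9 and 99.1 in WT libraries (log2 change 0.44, SE 0.107, adjusted p = 0.0334). That of Mrpl45 had 148, 161.6 and 146.4 in cKO-labelled and 121.9, 77.5 and 120.9 in WT libraries (log2 change 0.34, adjusted p = 0.0482). Neither gene's groups overlapped, and the WT library numbered 2 was the lowest at both. Per kb of peak the change was 0.18 at Mrpl9 (limma adjusted p = 0.51) and 0.24 at Mrpl45 (limma adjusted p = 0.359). The call at Mrpl45 was lost when any library was left out, and that at Mrpl9 when any cKO-labelled library or the WT library numbered 3 was, with adjusted p of 0.0518 to 0.117. The next smallest p were at Mrps33 and Mrps7, with log2 changes of 0.36 and 0.27 (adjusted p 0.0506 and 0.0674). The RNA of Mrpl9 and Mrpl45 had log2 changes of -0.16 and -0.01.

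The 16 genes that fell in the authors' deposited RNA table had 16 start regions. Of these 0 passed the threshold and 12 had a positive ATAC change, and the 16 changes ran from -0.18 to 0.35 with a median of 0.12. Regions within 1 kb of any gene start had the same median of 0.12, and 31% of them were negative. At Mrpl33, whose promoter is printed above, the tags were 30.7, 39.8 and 32.7 in cKO-labelled and 47.9, 51.8 and 38.7 in WT libraries, which overlap (log2 change -0.18, SE 0.236). At Mrps14 they were 315.6, 310.8 and 315.2 in cKO-labelled and 257.4, 143 and 239.2 in WT libraries (log2 change 0.19 after quantile normalization, adjusted p = 0.126). Across 77 genes the rank correlation of ATAC and RNA changes was 0.18. The 2 assays come from different libraries, and 31 of the 80 pairs of gene and region reach the start of another gene.

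**Figure D5:**
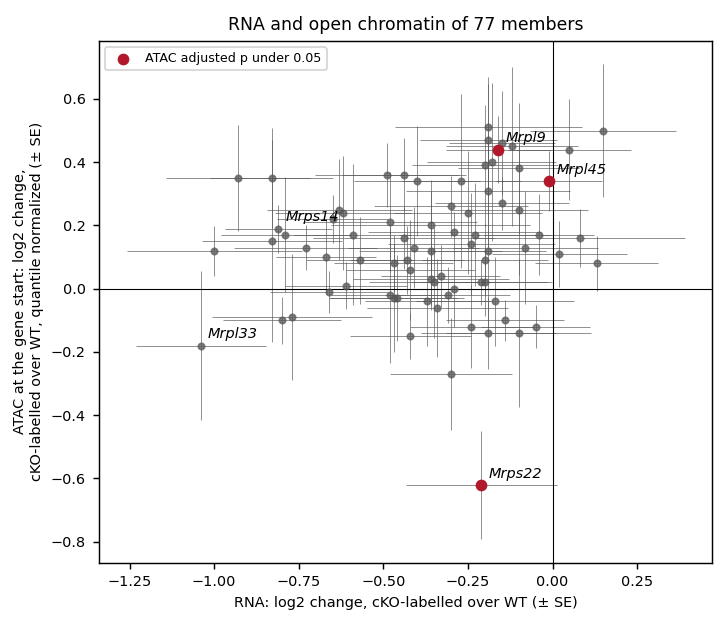
ATAC log2 change at the gene start (vertical axis, quantile normalized) against RNA log2 change (horizontal axis), both cKO-labelled over WT with standard errors, for 77 genes. Most points lie left of 0 in RNA and above 0 in ATAC, and red marks the starts of Mrps22 (-0.62), Mrpl9 (0.44) and Mrpl45 (0.34).

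Tags in the peaks called on mitochondrial DNA, 2 in each library, made up 7.54%, 6.71% and 7.78% of the ATAC tags in cKO-labelled and 7.01%, 4.98% and 6.84% in WT libraries. These overlap (exact two-sided permutation test, p = 0.3, where the smallest p that 3 against 3 allows is 0.1).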

How the data were processed

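RNA values are a signal in the deposited table, namely normalized counts made by the authors. They are not whole, so the raw depth is unknown. Its log2 fold changes, their standard errors, p-values and adjusted p-values are the authors' own. The submitters' processing notes name HOMER 4.11, Bowtie2 2.3.5.1, RSEM 1.3.3, STAR, edgeR, DESeq2 and the build mm10, without settings. Per the file headers, ATAC peaks were called in each library by HOMER (Poisson p-value threshold 0.001), with tag counts as a signal per 10000000 tags, a score in unscaled tags and a clonal fold ratio, which was not used.

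Genes with a mean of at least 10 entered a limma fit (version 3.58.1, R 4.3.3, eBayes with a trend) on log2(value + 1), with Benjamini-Hochberg adjustment over all of them. ATAC regions (peaks sharing at least 1 bp, merged with pandas 2.3.3 and numpy 2.4.6 under Python 3.11.15) with a peak in all 6 lists were tested likewise on quantile-normalized log2(tag count of the highest peak + 1). The exact test used scipy 1.17.1 and figures matplotlib 3.10.9. The fits were also run on simulated data, which is not read here as a measure of error or power at the changes reported. Gene spans and promoters come from RefSeq (GRCm38.p6). The members and lists were chosen with earlier results of these data known. Named were Nfe2l2, members past 0.05 here or in the authors' table, the extremes of change and mean, the 3 smallest p of each list and the 5 smallest ATAC p; other genes with values illustrate a structural role and were chosen after their values were seen. Alternatives were other pseudocounts, filters, scalings and variance models, the replicate block and each library left out.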

Additional observations from a re-analysis of the deposited data

How the results depend on the processing

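Over 17 alternative fits of the RNA, between 69 and 75 of the 78 genes had a negative change, with a median from -0.36 to -0.28, and 0 passed as higher. The number past the threshold as lower was 0 by the limma fit reported. It was 1 (Mrpl33) with a pseudocount of 5, with no filter on low values or with trimmed mean rescaling. Of all genes, 0.255%, 0.175% and 0.216% were then lower. It was 2 (Mrpl33 and Mrps14) with a minimum mean of 50 (0.352% of all genes lower). It was also 2 with the span trend removed per library (0.507%), an alternative chosen after seeing the data. With sample quality weights it was 21, where 4.65% of all genes were lower and 5.22% higher. The cKO-labelled library numbered 1 then had a weight of 7.43. In the authors' deposited table it was 16, against 3.9% of all genes there. The median of the authors' own log2 changes was -0.17 for the 78 genes and 0.01 for all genes there. How the authors estimated these changes is not given, and a further column of log2 changes was not read. The -0.17 is therefore not comparable in size with the limma medians. With 1 library left out the number lower ran from 0 to 4. It was 4 without the cKO-labelled library numbered 2 (0.52% of all genes lower) and 1 without the WT library numbered 1 (0.349%). The count of genes lower without overlap ran from 31 to 39 with all libraries kept and from 38 to 47 with 1 left out. Groups separate more easily with fewer libraries. The share of all genes was not computed for these alternatives, so the counts are not read against a background. The signs of changes near 0 turned: Mrpl14 to -0.03 after quantile normalization and ranging from -0.2 to 0.3 with 1 library left out, Mrpl10 from -0.05 to 0.12, Mrpl23 from -0.38 to 0.04, and Mrpl45 to 0.01 after quantile normalization or cyclic loess and ranging from -0.1 to 0.09 with 1 library left out. The cause was not tested.

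The count of ATAC start regions lower was 1 in the fit reported. It was 0 with library medians subtracted (5.48% of all regions lower), no further scaling (9.03%) or summed tags (7.33%). With tags per kb (1.56%) or peaks above the median score (2.07%) it was 0 too. It was also 0 with any library left out, where 0.88% to 3.28% of all regions were lower. Regions higher, 2 in the fit reported, numbered 47 with medians subtracted (28% of all regions), 6 with summed tags (6.81%) and 1 per kb (0.927%). They numbered 0 among peaks above the median score (2.58%) and 0 to 2 with 1 library left out (0.304% to 2.95%). The median change of the genes' start regions was 0.51 with medians subtracted, 0.21 with no further scaling and 0.1 per kb. It was 0.21 among peaks above the median score, and 0.11 to 0.16 with 1 library left out.

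The replicate numbers were not shown to pair the libraries: deviations of same-number libraries correlated at 0.12, 0.21 and -0.06 in RNA and at -0.02, -0.01 and 0 in ATAC. With the replicate block, 2 genes were lower in RNA, against 0.509% of all genes. In ATAC 0 start regions were then lower and 1 higher, against 3.78% and 2.6% of all regions.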
